A study of Mus musculus with 4 samples.

Results

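The genes described here, Prss33, Wfikkn1, Ankrd2, Il20rb, Ager and Ccdc187, are 6 of the 52636 genes in a table of gene expression in mouse retina. They were chosen by their normalized counts in these same libraries, low in wild-type (WT) retina and much higher in retina of mice with the mutation Q344X. That choice used the values given below, so the levels of the 6 genes are a description and no test is attached to them. The rule gave no numerical limit. By their log2 difference the genes held ranks 12 (Prss33), 21 (Wfikkn1), 23 (Ankrd2), 24 (Il20rb), 37 (Ccdc187) and 52 (Ager) among 16833 tested genes. In all, 55 tested genes, or 0.327%, had a difference of at least 3. All 6 passed the filter used for testing, a mean of at least 10 normalized counts over the 4 libraries, but 4 of them had a WT mean below 10 and passed only through their values in Q344X.

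Retinas came from 3-week-old mice in 2 groups, Q344X with 2 libraries and WT with 2 libraries. Q344X is a mutation known as a cause of dominantly inherited retinitis pigmentosa, in which rod photoreceptors die. Polyadenylated RNA was sequenced from directional libraries on an Illumina HiSeq instrument. The labels do not give the number of mutant copies, the way the allele was made, the strain, sex or litter. The sources differ on the animals, since the design text starts from 3 per group and keeps 2 per group after poor RNA and outliers were removed, while the protocol for extraction counts 3 mice with Q344X and 2 WT mice. No label ties a library to an animal, so every spread given here is that between libraries.

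The 6 genes belong to different protein families and have no common pathway. Prss33 encodes a trypsin-like serine protease. Wfikkn1 encodes a secreted protein with several protease-inhibitor modules that binds myostatin and GDF11, growth factors of the TGF-beta superfamily, and blocks their action. Ankrd2 encodes a muscle ankyrin repeat protein that is found at the sarcomere and in the nucleus of slow skeletal muscle and responds to stretch. Il20rb encodes the shared subunit of the receptors for interleukins 19, 20 and 24, which signal through Janus kinases and STAT factors and are best known from skin. Ager encodes RAGE, a cell-surface receptor for advanced glycation end products, HMGB1 and S100 proteins, and is most abundant in flat alveolar cells of the lung. Ccdc187 encodes a coiled-coil protein. None of the 6 is a standard marker of a retinal cell type.

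Reads in genes, as recovered from the deposited values, came to 19034261 and 19346580 in the Q344X libraries and 18452679 and 19706573 in the WT libraries. Of 16833 tested genes, 919 (5.46%) were higher and 1531 (9.1%) lower in Q344X (limma, Benjamini-Hochberg adjusted p under 0.05). Of 12 retinal markers, 1 rose, 3 fell and 8 did not pass, and all 12 were above 0 in each library. Every marker of lens, microglia, endothelium and pigment epithelium was above 0 in each library too. Being above 0 is thus no check of the labelled tissue. Fewer cells of a type and less RNA per cell cannot be told apart in whole retina. One library stood apart in RNA of the lens, the tissue in front of the retina. Summed over 10 lens markers, Q344X replicate 2 had 5564 normalized counts, Q344X replicate 1 had 153067, and the WT libraries had 178988 and 206525.

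The promoters of the 6 genes are shown because they are the sequence next to each start site and were no part of the choice. All 6 genes were matched by symbol in RefSeq (GRCm38.p6), and the 250 bases before each RefSeq start were read. They held few CpG dinucleotides, the sites of DNA methylation that are dense in promoters of broadly active genes. The counts were 1 in Prss33, Wfikkn1 and Il20rb, 2 in Ccdc187, 3 in Ager and 5 in Ankrd2, against a median of 6 over 27025 promoters of the same length. For Prss33 and Il20rb the window lies inside the GENCODE gene, so their counts may not be those of a promoter. A count of 5 or fewer was found in 49.5% of all promoters and a count of 2 or fewer, as in 4 of the 6, in 29.6%. The sequences of Wfikkn1 (chr17:25880859-25881108, minus strand), Ager (chr17:34597600-34597849, plus strand) and Ccdc187 (chr2:26294558-26294807, minus strand) show this, with each CpG in capitals. None of their bases lies in an annotated exon of GENCODE M21.
Wfikkn1: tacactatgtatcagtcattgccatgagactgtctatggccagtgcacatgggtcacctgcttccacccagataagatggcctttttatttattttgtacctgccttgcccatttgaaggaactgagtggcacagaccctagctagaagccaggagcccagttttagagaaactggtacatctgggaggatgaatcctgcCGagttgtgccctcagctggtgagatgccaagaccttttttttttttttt
Ager: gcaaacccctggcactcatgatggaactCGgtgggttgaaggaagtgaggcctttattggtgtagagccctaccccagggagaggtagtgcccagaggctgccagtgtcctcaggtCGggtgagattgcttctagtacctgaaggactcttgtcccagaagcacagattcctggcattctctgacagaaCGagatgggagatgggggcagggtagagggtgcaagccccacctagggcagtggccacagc
Ccdc187: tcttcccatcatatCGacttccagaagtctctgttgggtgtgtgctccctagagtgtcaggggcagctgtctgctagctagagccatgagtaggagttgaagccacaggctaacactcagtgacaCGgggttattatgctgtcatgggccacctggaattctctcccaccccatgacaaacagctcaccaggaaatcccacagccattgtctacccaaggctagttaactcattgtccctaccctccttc

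The promoters shared few motifs. On both strands 7 were searched. They were the TAATCC type bound by the photoreceptor factors CRX and OTX2, the TGANTCA element that AP-1 factors recognise, the TGACGTCA element for cyclic AMP response, the TTCNNNGAA element for STAT factors, the CACGTG form of the E-box, the TATAAA form of the box near start sites, and the GGGCGG form of the GC box. None of the 7 was found in Prss33, Wfikkn1, Ager or Ccdc187. Ankrd2 (chr19:42035777-42036026, plus strand) was the one promoter with TATAAA, which began 29 bases before the RefSeq start, and it also held 2 GC boxes. It is shown with these motifs in capitals.
Ankrd2: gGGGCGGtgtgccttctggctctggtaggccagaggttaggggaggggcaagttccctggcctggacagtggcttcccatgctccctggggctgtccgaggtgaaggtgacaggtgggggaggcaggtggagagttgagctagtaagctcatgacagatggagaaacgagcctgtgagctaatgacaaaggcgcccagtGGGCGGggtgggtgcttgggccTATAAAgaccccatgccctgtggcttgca
Il20rb held 1 TAATCC, 217 bases before its RefSeq start, and 1 GC box. Over all promoters, TAATCC was found in 6.38%, TATAAA in 13% and GGGCGG in 32.9%. Of the motifs found in none of the 6, the AP-1 element was in 6.87% of all promoters, the cyclic AMP element in 1.62%, the STAT element in 7.18% and the E-box in 6.05%. For Il20rb and Prss33 the GENCODE start lies 315 and 289 bases upstream of the RefSeq start, so for these the window is inside the GENCODE gene. All 250 bases of the Il20rb window, with its TAATCC and GC box, lie in its own GENCODE exon, and no base of the Prss33 window lies in an exon. The last 27 bases shown for Ankrd2 lie in its GENCODE exon. Its TATAAA spans the GENCODE start, so most of that motif lies in the exon.

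Each of the 6 genes was above 0 in both WT libraries, so none was silent in WT, and in each both Q344X libraries stood above both WT libraries, as was the case for 31.4% of all tested genes. Nothing is read from that count, since the choice of genes fixed it.

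Prss33, the serine protease (ENSMUSG00000049620, GRCm38 chromosome 17, 23833347 to 23836056), was the rarest in WT. It had 108 and 87.3 normalized counts in the Q344X libraries, against 3.12 and 4.01 in the WT libraries. These WT values are 3 and 4 reads, with exact Poisson 95% intervals of 0.619 to 8.77 and 1.09 to 10.2 reads, which cover counting error only. The Q344X values are 109 and 91 reads. The means were 97.6 ± 14.5 in Q344X and 3.57 ± 0.630 in WT (SD, n = 2 each), a ratio of 27.4 and the largest of the 6. The difference of mean log2(value + 1) was 4.43. The added 1 makes such differences smaller than the ratio of means for rare genes.

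Wfikkn1, the myostatin and GDF11 antagonist (ENSMUSG00000071192, chromosome 17, 25877628 to 25880858), had 103 and 109 normalized counts in Q344X, against 7.28 and 8.02 in WT. Its libraries lay close together within each genotype, and the ratio of means was 13.9 (log2 difference 3.63). Ankrd2, the muscle ankyrin repeat gene (ENSMUSG00000025172, chromosome 19, 42036000 to 42045110), had 91.1 and 125 in Q344X, against 9.36 and 7.02 in WT. The ratio of its means was 13.2 (log2 difference 3.56). Il20rb, the cytokine receptor subunit (ENSMUSG00000044244, chromosome 9, 100457719 to 100486788), had 104 and 109 in Q344X, against 13.5 and 5.01 in WT. It was the gene whose WT libraries differed most, as 13 reads stood against 5, and its log2 difference of 3.53 was 4.16 without WT replicate 1 and 2.89 without WT replicate 2.

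Ager and Ccdc187 were less rare. Ager, the receptor RAGE (ENSMUSG00000015452, chromosome 17, 34597862 to 34600936), had 291 and 250 normalized counts in Q344X, against 30.2 and 32.1 in WT, giving a ratio of means of 8.69 (log2 difference 3.07). Ccdc187, the coiled-coil gene (ENSMUSG00000048038, chromosome 2, 26243469 to 26294557), had 2351 and 1640 in Q344X, against 183 and 205 in WT, a ratio of means of 10.3 (log2 difference 3.34). Ccdc187 does not match the description of a rare gene, since 36.8% of the tested genes were lower in WT. For the others that share was 0.267% (Prss33), 1.47% (Wfikkn1), 1.72% (Ankrd2), 2.28% (Il20rb) and 15.2% (Ager). These shares count only tested genes, and a gene with a WT mean below 10 could be tested only if it was higher in Q344X.

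**Figure D1:**
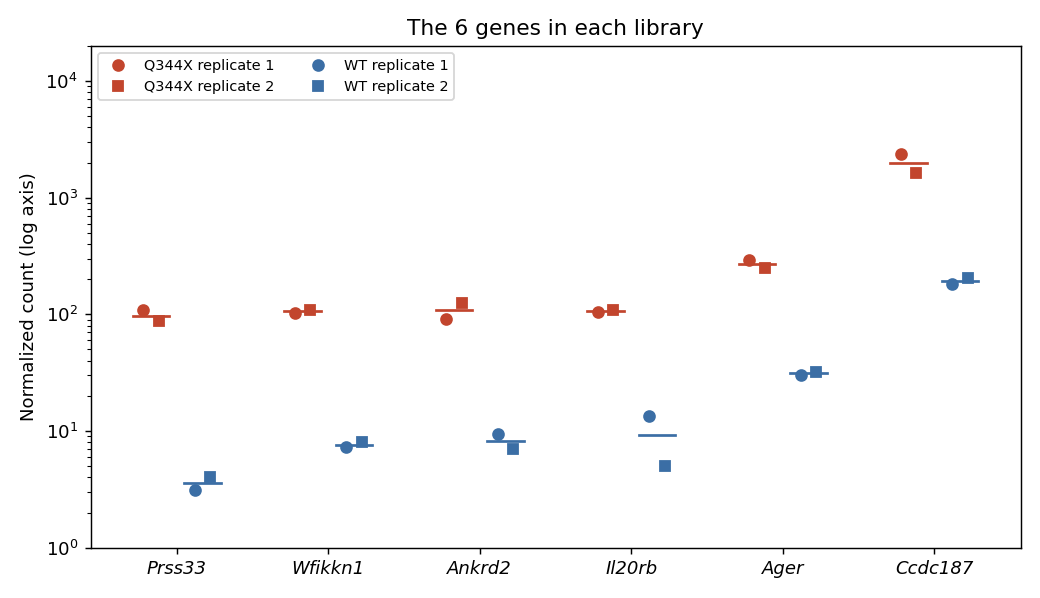
Normalized counts of the 6 genes (vertical log axis) in each library, with Q344X in red to the left of WT in blue, circles for replicate 1, squares for replicate 2 and a line at the mean of 2 libraries. The 4 rarest genes lie between 87.3 and 125 in Q344X and between 3.12 and 13.5 in WT, and Ccdc187 is the most abundant in both genotypes.

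Compared per kilobase of annotated exon, the 6 genes stood in Q344X in the order Ccdc187 (203 normalized counts per kb), Ager (126), Ankrd2 (94.8), Prss33 (54.6), Wfikkn1 (41.9) and Il20rb (25.4). The libraries of neighbours in this order did not overlap. In WT the order was Ccdc187 (19.7 per kb), Ager (14.5), Ankrd2 (7.20), Wfikkn1 (3.02), Il20rb (2.20) and Prss33 (1.99). There Il20rb overlapped with both Wfikkn1 and Prss33, so its place beside them is not settled in WT. Wfikkn1 (2.87 and 3.16 per kb) lay above Prss33 (1.74 and 2.24) in both WT libraries, on 7 and 8 reads against 3 and 4. The median over tested genes was 90.8 per kb in Q344X and 96.6 in WT. In Q344X, Ccdc187 and Ager were above the median gene in both libraries, and Ankrd2 was below it in replicate 1 (80.0) and above it in replicate 2 (110). In WT all 6 were below the median in both libraries.

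**Figure D2:**
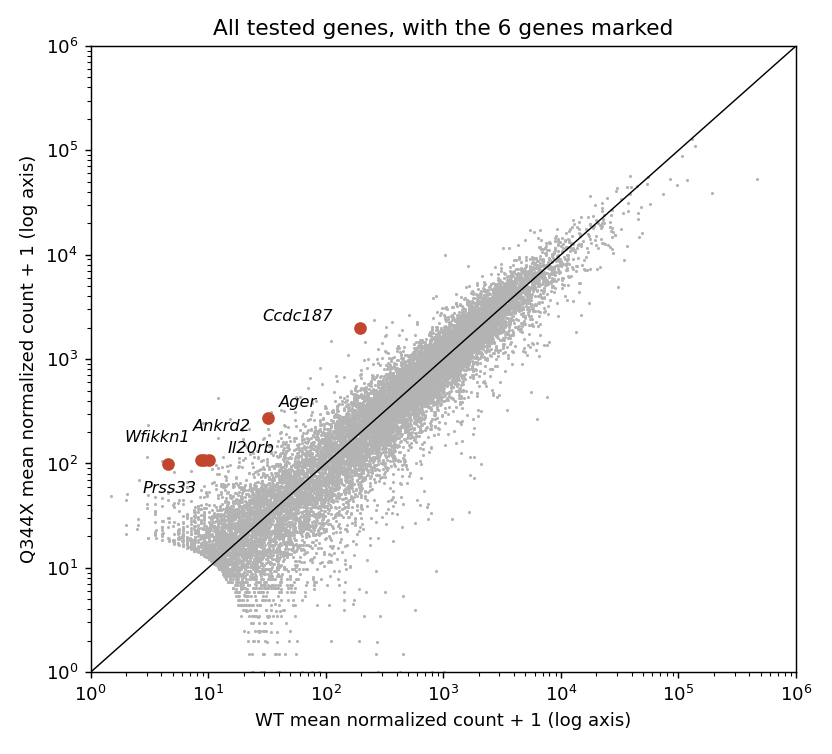
Mean normalized count + 1 of each of 16833 tested genes in Q344X (vertical log axis) against WT (horizontal log axis), each over 2 libraries, with the 6 genes in red and a line of equal values. The 6 genes lie on the upper edge of the cloud, 5 of them at its low end in WT and Ccdc187 nearer the middle, at 194 in WT.

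Q344X replicate 2, the library with little lens RNA, was compared with Q344X replicate 1. In replicate 2, 3 of the 6 (Wfikkn1, Ankrd2 and Il20rb) were higher and 3 (Prss33, Ager and Ccdc187) lower than in Q344X replicate 1. The differences between these libraries, replicate 2 minus replicate 1, ran from -0.52 for Ccdc187 to 0.45 for Ankrd2 on the log2 scale. The part of lens RNA in the levels of the 6 genes was not tested. Leaving out any 1 library gave log2 differences of 4.28 to 4.58 for Prss33, 3.57 to 3.69 for Wfikkn1, 3.34 to 3.79 for Ankrd2, 2.96 to 3.19 for Ager and 3.08 to 3.60 for Ccdc187.

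The genes nearest to each of the 6 on the chromosome were tested, since they were not part of the choice. Prss33, Wfikkn1 and Ager lie on chromosome 17, which holds 4.57% of the tested genes. Of the 55 genes with a log2 difference of at least 3, 5 (9.09%) lie there, and 3 of these 5 are the chosen genes themselves. Nothing is read from that share. No exon of the 6 shares a base with an exon of another gene annotated in GENCODE M21 on either strand. Of the 36 nearest protein-coding genes, 3 on each side, 30 were tested, 4 rose, 1 fell and 25 did not pass, with a median log2 fold change of 0.26, against 0.02 over all tested genes and a background of 5.46% higher and 9.1% lower.

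Of the immediate neighbours that were tested, none passed the threshold. Prss41, a serine protease gene 728 bases from Prss33, had 14.9 and 12.5 normalized counts in Q344X, against 8.32 and 13.03 in WT. On the other side of Prss33, Elob, an elongin subunit, had a log2 fold change of 0.59 ± 0.29 (SE). Beside Wfikkn1, Mettl26, 458 bases away, had -0.84 ± 0.27 (adjusted p = 0.0857, limma) and Rab40c had 0.24 ± 0.27. Hoga1, 499 bases from Ankrd2, had 17.8 and 18.2 normalized counts in Q344X, against 15.6 and 12.03 in WT, and Ubtd1 on its other side had a log2 fold change of 0.11 ± 0.38. Beside Il20rb, Nck1, an adaptor protein gene, had -0.34 ± 0.19, and Sox14, 581548 bases away, was at 0 in every library and not tested. Rnf5 and Pbx2, 154 and 461 bases from Ager, had -0.04 ± 0.17 and 0.13 ± 0.21. Beside Ccdc187, Qsox2 and Gpsm1 had -0.18 ± 0.18 and -0.15 ± 0.24.

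The neighbours past the threshold lay further away. Card9, an adaptor of innate immune signalling and the third gene beyond Ccdc187, had 40.6 and 28.8 normalized counts in Q344X, against 5.20 and 8.02 in WT. It rose by a log2 fold change of 2.23 ± 0.44 (SE, adjusted p = 0.0293, limma). The WT mean of Card9 was below 10, so it was tested only through its values in Q344X. Lhx3, a LIM-homeobox factor of bipolar cells on the other side of Ccdc187, had 357 and 369 in Q344X, against 187 and 174 in WT, and rose by 1.002 ± 0.19 (adjusted p = 0.0275). With WT replicate 1 left out, Lhx3 had adjusted p = 0.102, and with WT replicate 2 left out 0.145. Egfl8, the third gene beyond Ager, rose by 1.39 ± 0.30, and Agpat1, an acyltransferase of phospholipid synthesis between them, fell by 0.81 on the log2 scale. Egfl8 lost its call without WT replicate 1, WT replicate 2 or Q344X replicate 2 (adjusted p = 0.0684, 0.102 and 0.0713, limma), and Agpat1 without WT replicate 1 or 2 (0.128 and 0.315) and under scaling to the 75th percentile (0.0540). Flywch2, the third gene before Prss33, rose by 1.30 ± 0.28, with adjusted p = 0.0830 when WT replicate 1 was left out.

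**Figure D3:**
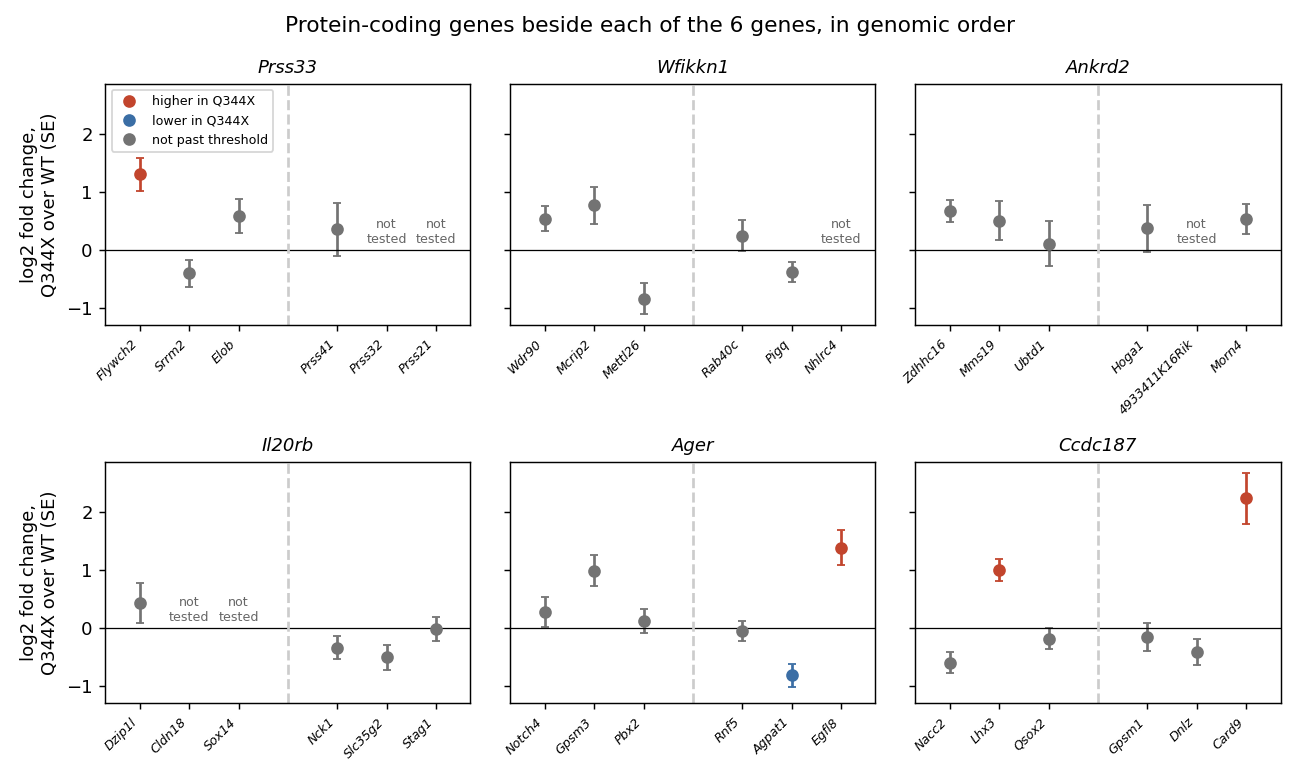
Log2 fold change, Q344X over WT, with its SE (vertical axis), of the 3 protein-coding genes on each side of each of the 6 genes, in genomic order, with the place of the gene itself as a dashed line. Card9, Lhx3, Egfl8 and Flywch2 are higher in Q344X and Agpat1 is lower, and no immediate neighbour passed the threshold.

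Partners, paralogues and families related to the 6 were gathered in 5 lists, and a sixth holds motile cilia genes with no known tie to them. Together the 6 lists have 157 genes in the table, of which 117 were tested, 11 rose, 7 fell and 99 did not pass. The shares over all tested genes, 5.46% higher and 9.1% lower, are the background for these counts, and nothing particular to the lists is read from them.

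The list around Wfikkn1, with ligands, antagonists, receptors and SMAD factors of the myostatin, GDF11 and activin pathway, had 28 of 30 members tested. Of these 4 rose, 0 fell and 24 did not pass (limma), and the median log2 fold change was 0.11. The ligand Mstn, myostatin, which Wfikkn1 binds, had 151 and 147 normalized counts in Q344X, against 18.7 and 20.1 in WT, and rose by 2.88 ± 0.26 (SE, adjusted p = 0.00548, limma). The groups lay far apart and both pairs of libraries were close. Wfikkn2, the paralogue of Wfikkn1 and a second antagonist of the same ligands, had 248 and 343.6 in Q344X, against 145 and 153 in WT, and rose by 0.97 ± 0.24. Bmp1, a metalloprotease that can release myostatin from its propeptide, rose by 0.997 ± 0.17, and Skil, a repressor of SMAD factors, by 0.73 ± 0.17.

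Other members of that pathway did not pass. Gdf11 had 497 and 580 normalized counts in Q344X, against 396 and 513 in WT. The receptor gene Acvr2b had 618 and 566 in Q344X, against 613 and 612 in WT (log2 fold change -0.05 ± 0.18, SE). Follistatin, Fst, a secreted antagonist, had 29.7 and 47.0 in Q344X, against 11.4 and 18.0 in WT, with adjusted p = 0.0883 (limma). These members were named for their role, after their values were seen. Mstn kept its call without any 1 library. Wfikkn2 lost it without WT replicate 1, WT replicate 2 or Q344X replicate 2 (log2 fold change 0.93, 1.01 and 0.73). Bmp1 lost it without WT replicate 1 or 2 (1.03 and 0.96), and so did Skil (0.77 and 0.69). Wfikkn2 was also not past the threshold with a minimum mean of 50 (adjusted p = 0.0513, limma). Nor was Skil under quantile normalization (0.0556).

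The list around Ager, with ligands of RAGE, its signalling partners and induced genes, had 24 of 30 members tested, of which 2 rose, 0 fell and 22 did not pass (limma, median log2 fold change -0.15). The ligand Hmgb1, a chromatin protein that acts as an alarm signal outside the cell, had 2591 and 2670 normalized counts in Q344X, against 937 and 950 in WT, and rose by 1.48 ± 0.16 (SE, adjusted p = 0.00837). Hmgb1 has many processed copies in the genome, so its reads may be split. Vcam1, an adhesion molecule induced downstream of RAGE, rose by 0.87 ± 0.20, and lost its call without WT replicate 1 or 2 (adjusted p = 0.112 and 0.258). App and Glo1, the members with the highest means that did not pass, had 0.05 ± 0.17 and 0.16 ± 0.19. None of the S100 ligands passed either. S100a6 had 203 and 129 normalized counts in Q344X, against 293 and 451 in WT (log2 fold change -1.17 ± 0.32). S100a1, S100a4 and S100a11 also had negative log2 fold changes (-0.57, -0.99 and -0.61), and S100a13 and S100b positive ones (0.34 and 0.49). S100b had 268 and 385 normalized counts in Q344X, against 210 and 250 in WT, and S100a8 and S100a9 were at 4.95 or below in every library. The sheddase gene Adam10 had 1497 and 1549 in Q344X, against 1422 and 1688 in WT. Among other members that did not pass, the log2 fold change was -0.90 for Lgals3, -0.86 for Tirap, -0.79 for Myd88 and 0.73 for Nfkbia.

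The list around Il20rb had 17 of 24 members tested, of which 1 rose, 2 fell and 14 did not pass (limma, median log2 fold change -0.04). The ligands of the receptor were nearly absent, with Il24 at 0 in every library, Il20 at 0 in both Q344X libraries and at 0 and 1.003 in WT, and Il19 at 0 and 1.92 in Q344X and at 0 in WT. The partner subunits were rare too. Il20ra had 17.8 and 13.4 normalized counts in Q344X, against 38.5 and 31.1 in WT (log2 fold change -1.11 ± 0.37, SE, adjusted p = 0.0927), and Il22ra1 was at 0.990 and 2.88 in Q344X and at 0 in both WT libraries. The related cytokine gene Il22 had 44.6 and 49.0 in Q344X, against 9.36 and 15.0 in WT, and rose by 1.89 ± 0.38, with adjusted p = 0.0731 without WT replicate 1 (limma). Il22 has a near-identical copy, Iltifb, with 19.8 and 48.9 in Q344X and 5.20 and 4.01 in WT, so the split of reads between them is uncertain.

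Among the signalling genes of that list, Stat5b had 579 and 651 normalized counts in Q344X, against 1142 and 1297 in WT, and fell by 0.99 on the log2 scale, a call lost without WT replicate 1 or 2 (adjusted p = 0.0766 and 0.154, limma). Stat3, the factor best known downstream of this receptor, had 1357 and 1262 in Q344X, against 1484 and 1222 in WT (log2 fold change -0.04 ± 0.19, SE). Its feedback target Socs3 had 0.05 ± 0.26. Jak1 had 0.03 ± 0.18.

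The list around Ankrd2 had 12 of 14 members tested, of which 0 rose, 2 fell and 10 did not pass (limma, median log2 fold change -0.46). Neither of its paralogues was higher in both Q344X libraries than in both WT libraries. Ankrd1 was at 0 in 3 libraries and at 0.960 in Q344X replicate 2, and Ankrd23 had 29.7 and 19.2 normalized counts in Q344X, against 43.7 and 28.1 in WT. Mypn, myopalladin, a sarcomere protein that binds a paralogue of Ankrd2, had 43.6 and 16.3 in Q344X, against 197 and 114 in WT, and fell by 2.44 on the log2 scale (adjusted p = 0.0348, limma). Pml, the scaffold of nuclear bodies, had 83.2 and 75.8 in Q344X, against 238 and 260 in WT, and fell by 1.63 (adjusted p = 0.0117). Ttn, titin, had a log2 fold change of -1.21 ± 0.41 (SE, adjusted p = 0.0973).

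**Figure D4:**
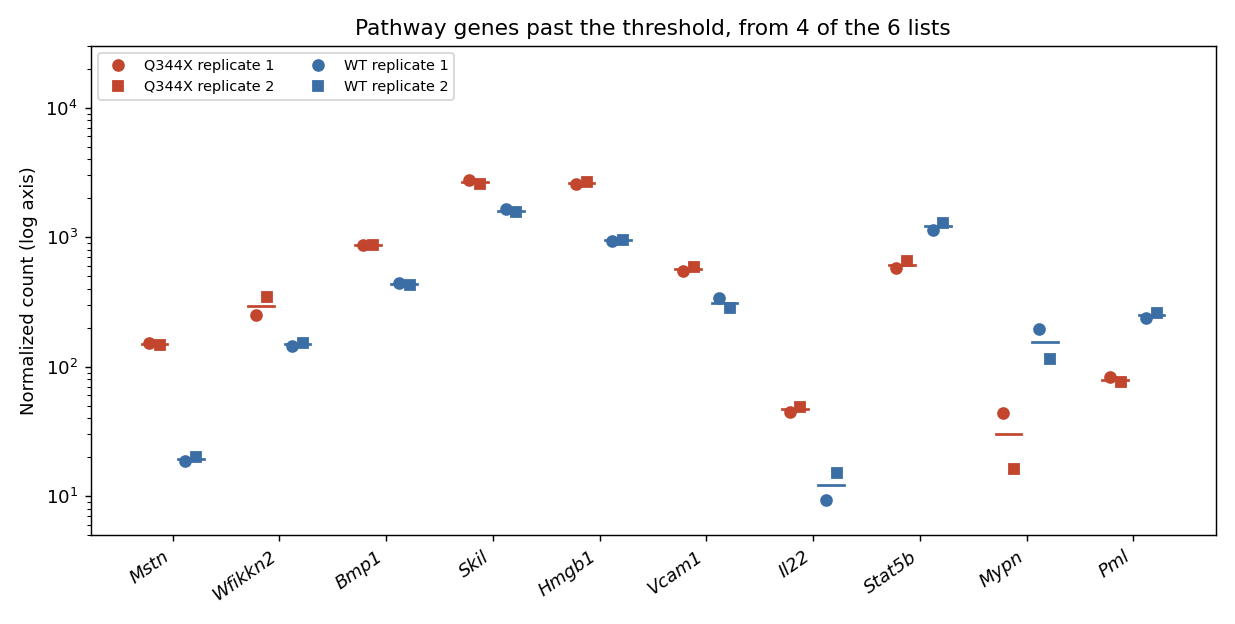
Normalized counts (vertical log axis) of pathway genes past the threshold in 4 lists, by library, with Q344X in red to the left of WT in blue and a line at the mean of 2 libraries. Mstn shows the widest gap among those that rose, 151 and 147 against 18.7 and 20.1, and Stat5b, Mypn and Pml are lower in Q344X.

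Serine proteases and their inhibitors, the list around Prss33, had 15 of 32 members tested, and 7 members were at 0 in every library. Of those tested 2 rose, 1 fell and 12 did not pass (limma, median log2 fold change 0.38). Plat, tissue plasminogen activator, had 633 and 554 normalized counts in Q344X, against 292 and 268 in WT, and rose by 1.08 ± 0.19 (SE). Prss56, a protease of Müller glia known for its part in eye growth, had 288 and 453 in Q344X, against 149 and 176 in WT, and rose by 1.15 ± 0.28. Prss36 fell by 1.01 on the log2 scale. Each of these calls was lost without WT replicate 1 or 2. The log2 fold changes were then 1.14 and 1.02 for Plat, 1.03 and 1.27 for Prss56, and -1.03 and -0.99 for Prss36. The calls of Prss56 and Prss36 were also lost without Q344X replicate 2, at log2 fold changes of 0.83 and -0.95. Prss36 was not past the threshold under scaling to the 75th percentile (adjusted p = 0.0538, limma) or quantile normalization (0.0733). Nor was Prss56 with a minimum mean of 50 (0.0503). Prss32, the next protease gene beyond Prss41 on chromosome 17, had 3.96 and 0.960 in Q344X, against 3.12 and 8.02 in WT, and Prss21 was at 0 in every library.

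The motile cilia genes were described beside the coiled-coil gene Ccdc187. Of 28 matched members 22 were tested, 2 rose, 2 fell and 18 did not pass (limma, median log2 fold change 0.14). Rsph9, a radial spoke protein, rose by 2.22 ± 0.25 (SE). Ccno, a cyclin-like protein of multiciliated cells, had 17.8 and 22.1 normalized counts in Q344X, against 2.08 and 3.01 in WT. It rose by 2.57 ± 0.51, but its WT mean was below 10, so it was tested only through its values in Q344X. Ccdc103 and Ccdc151, dynein arm factors, fell by 1.45 and 1.75 on the log2 scale. Without WT replicate 2, the adjusted p of Ccdc103 was 0.117 (limma). Foxj1, the master regulator of motile cilia, had 90.1 and 220 normalized counts in Q344X, against 77.0 and 113 in WT, and did not pass.

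When every gene above 0 was tested, in place of those with a mean of at least 10, 3 of the pathway genes were called higher and 2 lower. Mstn, Hmgb1, Rsph9 and Pml were among those left, and every neighbour call was lost.

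Markers of the tissues in which the 6 genes are best known were counted as well. Skeletal muscle, the main site of Ankrd2, had 7 of 20 markers tested. Of these Myh7, the slow myosin heavy chain, rose, Mylpf, a fast myosin light chain, fell, and 5 did not pass (limma). Unadjusted p was under 0.05 for 4, namely Myh7, Mylpf, Tnnt1 and Pygm, with only Myh7 higher in Q344X. The summed level of the 20 markers was 1575 and 1272 in Q344X and 2415 and 2041 in WT, most of it from Pygm and Tnnt1, neither past the threshold. Without these, chosen as the most abundant after the values were seen, the other 18 summed to 192 and 188 in Q344X and 183 and 153 in WT, so the lower sum in Q344X comes from Pygm and Tnnt1. Myh7 had 32.7 and 25.0 normalized counts in Q344X, against 9.36 and 7.02 in WT. Its WT mean was below 10, so it was tested only through its values in Q344X. It lost its call without WT replicate 1, WT replicate 2 or Q344X replicate 1 (adjusted p = 0.0592, 0.144 and 0.0948, limma), and Mylpf lost it without WT replicate 1 or 2 (0.140 and 0.0835). The muscle determination factor gene Myod1 was at 0 in both Q344X libraries and at 1.04 and 0 in WT.

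Lung alveolar epithelium, the main site of Ager, had 5 of 10 markers tested, of which 0 rose and 2 fell (Rtkn2 and Aqp5). Unadjusted p was under 0.05 for 3 (limma). The sums were 1742 and 1825 in Q344X and 2581 and 2499 in WT, lower mostly through Rtkn2 and Pdpn. Rtkn2 had 51.5 and 36.5 in Q344X, against 643 and 558 in WT. Pdpn had 846 and 864, against 1260 and 1101, and did not pass. Hopx went the other way, with 683 and 890 in Q344X, against 525 and 654 in WT. The surfactant genes Sftpc, Sftpb, Sftpa1 and Sftpd were at 1.92 or below in every library. The adjusted p of Aqp5 was 0.132 with WT replicate 2 left out, 0.0662 under quantile normalization and 0.0565 with a minimum mean of 50 (limma). Surface epithelium, where Il20rb is well known, had 8 of 10 markers tested, of which 0 passed in limma and 1 had an unadjusted p under 0.05, with sums of 263 and 254 in Q344X and 306 and 339 in WT. Eosinophils, in which human PRSS33 is known, had none of 10 markers tested, 5 at 0 in every library and sums of 6.93 and 11.5 in Q344X and 13.5 and 10.03 in WT. Mast cells had 4 of 10 markers tested, of which Hdc, histidine decarboxylase, fell, with Ms4a2 at 0 in every library and sums of 446 and 314 in Q344X and 438 and 434 in WT.

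Cell types inside or next to the retina gave these values. Pigment epithelium had 9 of 10 markers tested, of which Pmel, Rpe65 and Tyr rose and 0 fell. Of the 9, 5 had an unadjusted p under 0.05 (limma), among which Tyrp1 was lower. The sums were 6526 and 8246 in Q344X and 4866 and 5468 in WT. Rpe65 was not past the threshold without WT replicate 2 (adjusted p = 0.0697, limma), nor was Tyr without WT replicate 1, WT replicate 2 or Q344X replicate 2 (0.199, 0.106 and 0.0696). The part of pigment epithelium in the levels of the 6 genes was not tested. Of 10 microglia markers 0 passed in limma and 0 had an unadjusted p under 0.05, with sums of 1547 and 1763 in Q344X and 1618 and 1366 in WT. Of 10 endothelial markers Vwf rose and 9 did not pass in limma, and 4 had an unadjusted p under 0.05. These were Vwf, Pecam1, Cdh5 and Cldn5, each higher in Q344X. The list summed to 8393 and 6453 in Q344X and 6874 and 5070 in WT. Without Kdr and Flt1, left out as the most abundant after the values were seen, the sums were 2032 and 2210 in Q344X and 1459 and 1367 in WT. Vwf lost its call without WT replicate 1 or 2. Of the 10 lens markers 0 passed in limma and 1 had an unadjusted p under 0.05.

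**Figure D5:**
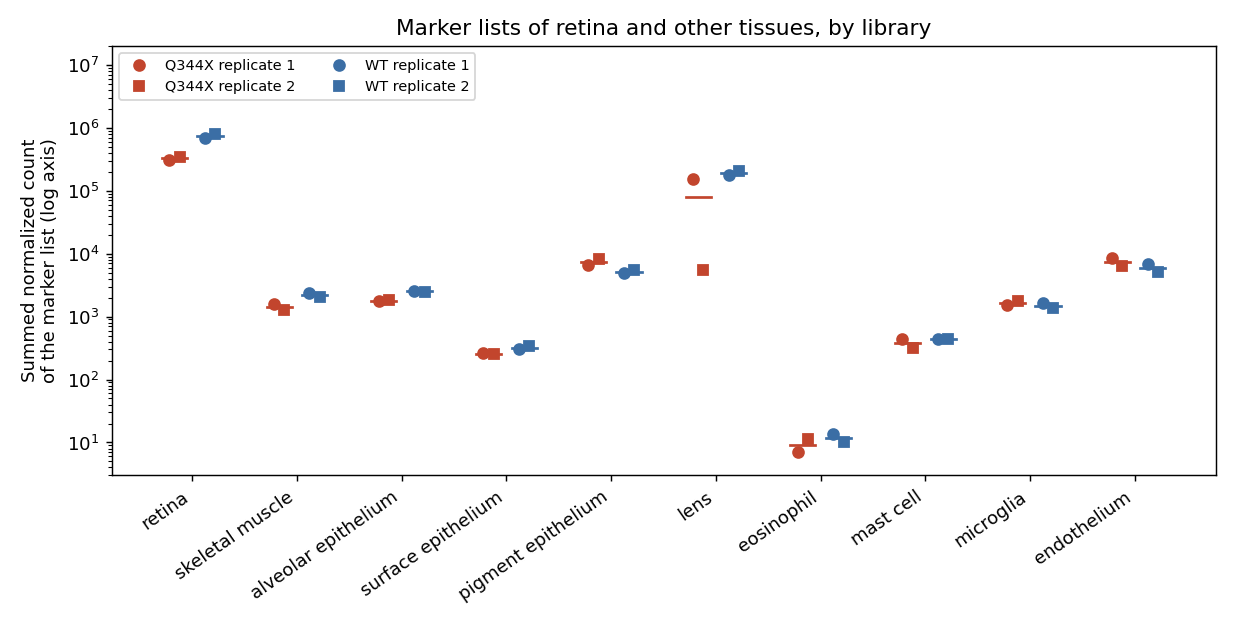
Summed normalized counts (vertical log axis) of marker lists for retina and other tissues in each library, with Q344X in red to the left of WT in blue and a line at the mean of 2 libraries. The summed level of the surface epithelium list is lower in Q344X than in WT. That of the muscle list is lower through Pygm and Tnnt1, and that of the alveolar list mostly through Rtkn2 and Pdpn. Pigment epithelium is higher, and the lens list is low in Q344X replicate 2 alone.

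The genes whose values over the 4 libraries lay nearest to those of each of the 6 were found by Euclidean distance on the log2(value + 1) scale among 14071 named genes. Wfikkn1, Ankrd2 and Il20rb lay beside each other, since the nearest gene to Wfikkn1 was Ankrd2 (distance 0.447), the nearest to Ankrd2 was Wfikkn1, and the nearest to Il20rb was Ankrd2 (0.693), which itself had Il20rb as second nearest. For Prss33 the nearest were Olfr1393 (0.487), an olfactory receptor gene with 93.1 and 71.0 normalized counts in Q344X and 4.16 and 4.01 in WT, and Pax7 (1.11), a transcription factor of muscle stem cells. For Ager they were Robo3 (0.538), an axon guidance receptor with 238 and 193 in Q344X and 34.3 and 28.1 in WT, and Ppic (0.685). For Ccdc187 they were Scube3 (0.684), a secreted protein with 1549 and 1372 in Q344X and 204 and 224 in WT, and Tubb2b (1.11), a neuronal tubulin. The second nearest to Wfikkn1 was Cd8a (0.892) and to Il20rb Slc17a9 (0.808). A near pattern over 4 libraries in 2 groups says only that the levels were alike.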

How the data were processed

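The deposited table holds a normalized signal per Ensembl gene, that is, the authors' gene counts over 1 size factor per library, as the steps in the values show. The submitters' processing notes list Trim Galore 0.4.4 and FastQC, the aligner STAR, featureCounts, DESeq2 1.16.1 and the build mm10. For the annotation and the strand setting nothing is given in the sources used here. Every value above 0 was a whole multiple of 1 step in its column, with 100% within 0.1 of a whole number, which gave the reads per gene and the size factors of 1.01 and 1.04 (Q344X) and 0.962 and 0.997 (WT). No count model was fitted. Replicate numbers follow accession order and pair nothing. Symbols were matched for 52403 of 52636 genes, and positions and exon lengths come from GENCODE M21 on GRCm38, the same assembly as mm10. Tests used limma 3.58.1 in R 4.3.3 on log2(value + 1), with a mean-variance trend, 3.90 prior and 2 residual degrees of freedom, and Benjamini-Hochberg adjustment over all 16833 genes with a mean of at least 10. All are two-sided. The fitting code was tested on simulated data with known changes. With 2 libraries a group, the smallest p of an exact permutation test is 0.333. P-values measure the spread between libraries, which may be technical. The members and lists were chosen with earlier results of these data known. The naming rule took at most 4 genes of a list, first genes past the threshold with the biggest changes, then the most abundant ones. Further list members in the text were picked for their role with their values known. Of 272 list entries, 2 were not matched. Some list members counted in the totals are not reported here by name. Alternatives were pseudocounts of 0.5 and 5, quantile normalization, 75th percentile scaling, robust variances, a filter at a mean of 50, every gene above 0, and leaving out each library, with the filter applied to the libraries kept. A fit without 1 library has only 1 library in a group, so a call lost there need not mean a smaller change.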

Additional observations from a re-analysis of the deposited data

How the results depend on the processing

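The log2 differences of the 6 genes kept their direction under every alternative run. Their median was 3.54, and 3.11 with a pseudocount of 5, which lowers the values of rare genes. The other alternatives moved the median by less than the spread between libraries. Counts of calls depended more on the processing. All genes called higher were 153 and lower 383 when every gene above 0 was tested, and leaving out 1 library gave 555 to 2388 higher and 904 to 3045 lower. Among the pathway genes, testing every gene above 0 gave 3 higher and 2 lower, a minimum mean of 50 gave 7 higher, and leaving out 1 library gave 4 to 19 higher and 5 to 17 lower. Among the neighbours, testing every gene above 0 gave 0 higher and 0 lower, scaling to the 75th percentile gave 0 lower, and leaving out 1 library gave 1 to 9 higher and 0 to 2 lower. Outside the 6, 34 genes named by the rule were called, of which 29 lost the call when every gene above 0 was tested, 19 without WT replicate 1, 21 without WT replicate 2, 1 without Q344X replicate 1 and 5 without Q344X replicate 2, and the cause was not tested. A few small changes that did not pass turned in direction. The log2 fold change of Jak1, 0.03 over all libraries, was -0.0543 under quantile normalization, and leaving out 1 library gave -0.0916 to 0.1511 for Jak1, -0.10 to 0.5351 for Csf1r and -0.0032 to 0.7598 for Kdr. Pairs of a promoter of the 6 and a motif found in it numbered 4 in windows of 250 bases and 3 in windows of 100. No paired analysis was possible because the labels give no replicate numbers. With 3 to 13 reads in WT for the 4 rarest genes, counting error limits the ratios given for them.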

Other observations

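The 6 genes were not alone in their pattern. Of the 55 tested genes with a log2 difference of at least 3, 33 were protein-coding and 23 of these had a WT mean below 10 normalized counts. Several are best known from other tissues, and those named here were chosen after their values were seen, so their levels are a description. Hao1, glycolate oxidase of liver, had 47.5 and 48.0 in Q344X, against 0 and 1.003 in WT. Klf17, a Krüppel-like factor of the germ line, had 25.7 and 44.2 in Q344X and was at 0 in both WT libraries. Krt20, a keratin of gut epithelium, had 33.7 and 42.2 in Q344X, against 4.16 and 2.01 in WT. Pnoc, the precursor of the neuropeptide nociceptin, had 38.6 and 51.8 in Q344X, against 3.12 and 3.01 in WT. Gli1, a target and effector of hedgehog signalling, had 16.8 and 23.0 in Q344X, against 1.04 and 1.003 in WT.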
